A study of Mus musculus with 16 samples.

Results

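The integrated stress response was described here through 9 genes in cultured mouse embryonic fibroblasts: Atf4, Atf3, Ddit3, Trib3, Chac1, Asns, Psat1, Phgdh and Sesn2. They were chosen by symbol, and all 9 of 9 had a row among the 23100 genes counted and passed the filter on low counts. RNA was sequenced from 16 libraries of 4 C57BL/6 cell lines grown from embryos of day 13.5 in medium with fetal bovine serum. The lines were 2 Zac1 mutant lines (Zac+/-) and 2 wildtype lines (Zac+/+), where Zac1, now called Plagl1, is an imprinted gene for a zinc finger transcription factor. Each line was harvested at day 2 in vitro, when the labels call the cells proliferative, and at days 8, 10 and 12, when they call them quiescent. The 8 groups of genotype and day thus held 2 libraries each. The sample titles code the mutant lines as KOpat and give a letter, I to replicate 1 and L to replicate 2 of both genotypes. The labels expand neither the code nor the letters, and do not say whether the lines of a genotype came from separate embryos, so p-values measure the spread between these lines.

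The integrated stress response is a pathway in which kinases that sense amino acid shortage, misfolded protein, double-stranded RNA or heme shortage phosphorylate the translation factor eIF2. General translation then slows, while the mRNA of the transcription factor ATF4 is translated more efficiently, so that ATF4 activity is set largely at the level of protein. ATF4 and its partners induce genes of amino acid synthesis and transport, and, when stress lasts, the factor CHOP (Ddit3) and regulators of cell death. The mRNA levels given below are not a measure of eIF2 phosphorylation or of ATF4 protein.

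Plagl1, measured as a check of the labels, had 47.4 and 51.5 CPM (counts scaled to a common library size) in the quiescent mutant lines, against 201 and 163 CPM in the quiescent wildtype lines. The 2 genotypes did not overlap, and Plagl1 was the single gene of 15740 called between them at quiescence (log2 fold change -1.88, SE 0.15, adjusted p = 0.00297, edgeR's quasi-likelihood test). Total counts per library lay between 28079241 and 61039793, and 3 counts, taken as the floor, were at most 0.107 CPM. Fibroblast markers summed to 29596 to 41873 CPM in quiescent libraries and 11994 to 13370 CPM in proliferative ones, and epithelial markers to at most 3.03 CPM. Macrophage markers, none of 9 at 0 in any library, summed at day 12 to 403 and 33.4 CPM in the mutant lines, against 69.0 and 230 CPM in the wildtype lines. Replicate 1 of the mutant and replicate 2 of the wildtype were the high ones, so 1 line of each genotype stood above the other. In such bulk samples fewer cells of a type and less RNA per cell cannot be told apart.

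The promoters of the members are shown first, because ATF4 and C/EBP factors bind a composite element whose letters can be looked for. RefSeq start-site windows of 300 bases on GRCm38.p6, running from 250 bases before the start to 50 after it, were at hand for 9 of 9 members in 10 windows (Psat1 had 2). Both strands were searched for the element TGATGNAA and for its variants TGACGNAA and TGGTGNAA, which were chosen after the sequences were seen. A match to at least 1 of the 3 was present in 5 of 9 members, while 8.52% of the 32851 promoters searched held one. The 5 windows follow, 5' to 3' on the strand of the gene, with the matching letters in capitals.
Trib3, chr2:152344011-152344310, minus strand: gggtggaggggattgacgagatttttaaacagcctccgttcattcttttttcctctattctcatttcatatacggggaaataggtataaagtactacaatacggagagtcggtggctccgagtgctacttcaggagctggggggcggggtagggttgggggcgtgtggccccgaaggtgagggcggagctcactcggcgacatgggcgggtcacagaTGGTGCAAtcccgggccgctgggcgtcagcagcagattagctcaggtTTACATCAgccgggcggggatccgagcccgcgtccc
Chac1, chr2:119350992-119351291, plus strand: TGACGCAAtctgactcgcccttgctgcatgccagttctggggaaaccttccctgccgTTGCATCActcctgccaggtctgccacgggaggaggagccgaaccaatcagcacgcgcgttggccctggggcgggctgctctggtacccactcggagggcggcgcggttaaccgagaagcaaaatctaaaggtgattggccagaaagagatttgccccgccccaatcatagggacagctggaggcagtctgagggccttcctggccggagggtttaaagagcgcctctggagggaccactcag
Atf3, chr1:191183284-191183583, minus strand: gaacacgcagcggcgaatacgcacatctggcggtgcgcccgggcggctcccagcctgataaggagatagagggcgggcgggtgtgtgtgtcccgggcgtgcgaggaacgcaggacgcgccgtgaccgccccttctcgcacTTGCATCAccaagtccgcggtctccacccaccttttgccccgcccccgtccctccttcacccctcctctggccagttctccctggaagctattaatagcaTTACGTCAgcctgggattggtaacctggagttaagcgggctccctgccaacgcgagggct
Asns, chr6:7693160-7693459, minus strand: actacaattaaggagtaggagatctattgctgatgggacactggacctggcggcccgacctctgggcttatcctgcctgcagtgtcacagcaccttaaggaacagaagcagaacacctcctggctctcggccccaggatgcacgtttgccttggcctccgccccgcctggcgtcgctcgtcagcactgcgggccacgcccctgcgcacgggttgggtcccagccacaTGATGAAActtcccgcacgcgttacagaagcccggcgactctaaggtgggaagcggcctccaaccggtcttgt
Psat1, chr19:15925010-15925309, minus strand: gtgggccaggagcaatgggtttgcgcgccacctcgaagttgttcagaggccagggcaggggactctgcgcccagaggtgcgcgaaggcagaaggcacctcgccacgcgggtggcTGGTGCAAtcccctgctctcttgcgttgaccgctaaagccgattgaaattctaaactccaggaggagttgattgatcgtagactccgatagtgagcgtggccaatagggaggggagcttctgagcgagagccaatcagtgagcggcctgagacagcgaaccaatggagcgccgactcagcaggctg

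Trib3 carried TGGTGNAA 33 bases before its start, and TGATGNAA on the opposite strand 15 bases after it. In Chac1, TGACGNAA lay 250 bases before the start and TGATGNAA, on the opposite strand, 193 bases before it. Atf3 held both TGATGNAA and TGACGNAA on the opposite strand, 110 and 10 bases before its start. The Asns match was TGATGNAA at 23 bases, and the Psat1 match TGGTGNAA at 136 bases, before the start. Singly, TGATGNAA was found in 3.97% of all promoters, TGACGNAA in 1.59% and TGGTGNAA in 3.23%, and no 2 matches of these members overlapped. The windows of Atf4, Ddit3, Phgdh and Sesn2 held none of these letters, which says nothing of the factor elsewhere. Genes with a match did not share a direction of change: of the 5, Trib3 and Chac1 rose with quiescence, Psat1 fell, and Atf3 and Asns did not pass the test.

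Expressed per length (CPM per kb of annotated exon), the members spanned a wide range of levels in every group. In quiescent mutant lines Phgdh stood highest at 125 ± 9.83 CPM per kb, followed by Ddit3 at 124 ± 28.9 and Atf4 at 122 ± 10.1 (SD, n = 2 lines for each value here). Psat1 at 68.1 ± 9.57 and Asns at 63.2 ± 6.92 came next, then Trib3 at 21.2 ± 3.06, Sesn2 at 17.0 ± 1.86 and Chac1 at 13.7 ± 1.79. Quiescent wildtype lines had a similar order, with Phgdh at 109 ± 6.96 CPM per kb, Atf4 at 106 ± 0.74, Ddit3 at 102 ± 7.71, Psat1 at 57.6 ± 2.42 and Asns at 53.4 ± 0.32. In both genotypes the first 3 differed by less than their spread. At day 2 Ddit3 held the fifth place, at 33.0 ± 4.42 CPM per kb in mutant lines and 32.0 ± 3.49 in wildtype lines, and Phgdh the first, at 224 ± 10.1 and 216 ± 4.81. Atf3 was last in all 4 groups of genotype and state, at 1.18 to 1.28 CPM per kb.

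From the proliferative to the quiescent state, the 9 genes divided into those that rose, those that fell and those that did not pass the test. The division was the same in both genotypes. All proliferative libraries were of day 2 and all quiescent ones of days 8, 10 and 12. State and time in culture can thus not be told apart, here or below. The effectors of the CHOP arm, Trib3, Ddit3 and Chac1, and the sestrin Sesn2 rose, while the serine synthesis enzymes Phgdh and Psat1 fell. The transcription factors Atf4 and Atf3 and the asparagine synthetase gene Asns were not called. For this comparison the counts of days 8, 10 and 12 of a line were summed, so that each line gave 1 quiescent and 1 proliferative value. In mutant lines 4 members rose and 2 fell, where 42.1% of all 15740 genes tested were called (21.1% higher and 21.0% lower). Wildtype lines also had 4 risen and 2 fallen members, where 47.6% of genes were called (23.9% higher and 23.7% lower). A call was an edgeR quasi-likelihood p, adjusted by Benjamini-Hochberg over all genes, under 0.05. Calls were common among all genes, so a count of 6 of 9 carries little by itself. The median log2 fold change of the members was 0.29 in mutant and 0.07 in wildtype lines, against 0.05 over all genes in both.

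**Figure D1:**
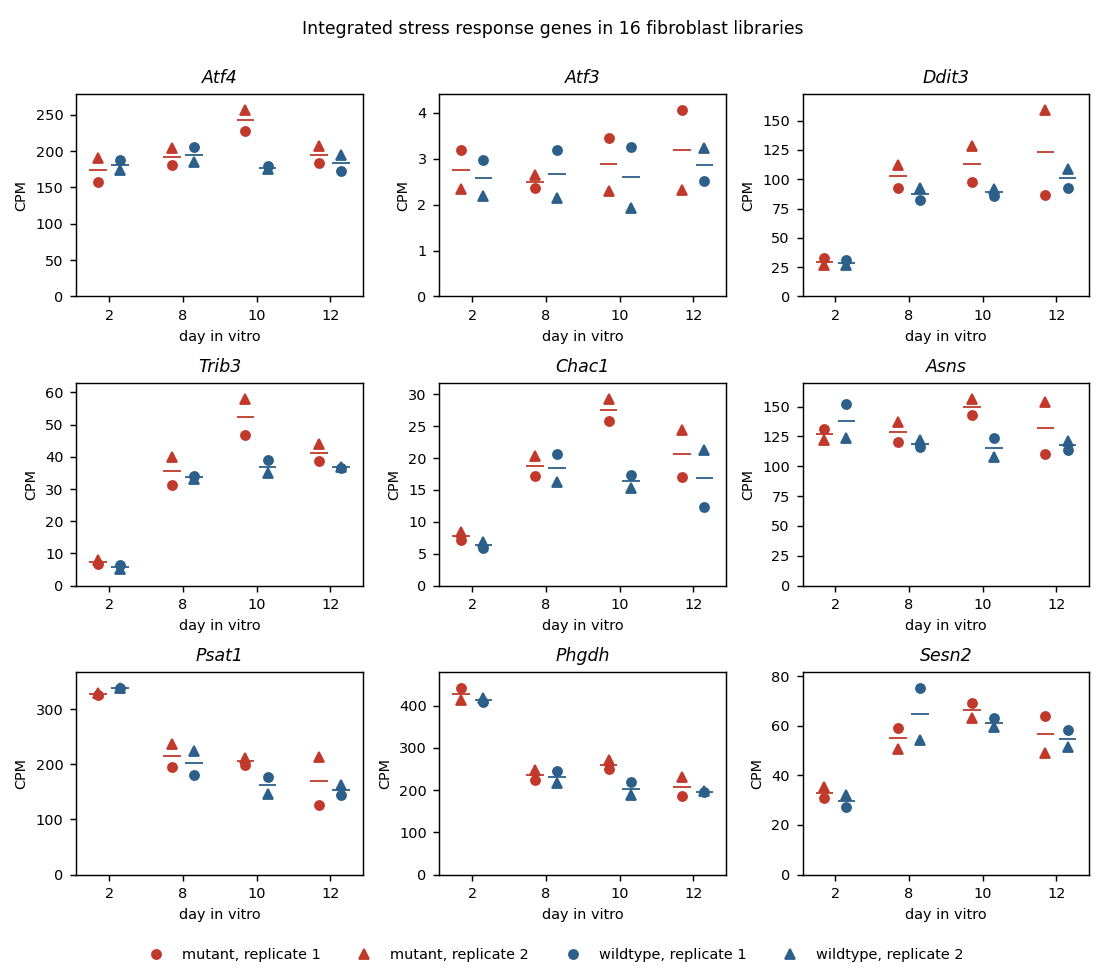
CPM of each member (vertical axes, starting at 0) by day in vitro, with mutant libraries in red left of wildtype libraries in blue, circles for replicate 1, triangles for replicate 2 and a short line at the mean of the 2. Trib3, Ddit3, Chac1 and Sesn2 were lowest at day 2 in every line, Psat1 and Phgdh highest, and Atf4 stood above both wildtype libraries in both mutant libraries at day 10.

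Trib3, a pseudokinase that binds AKT and dampens ATF4 output, changed most. It had 38.5 and 47.3 CPM in the quiescent mutant lines (replicates 1 and 2 in this order throughout), against 6.52 and 7.78 CPM in the proliferative mutant lines. In wildtype it had 36.0 and 34.5 CPM at quiescence, against 6.24 and 5.05 CPM in proliferation. All quiescent values stood far above all proliferative ones, a fold change of 5.97 in mutant lines (log2 2.58, SE 0.17, adjusted p = 4.28e-06, edgeR) and 6.28 in wildtype lines (log2 2.65, SE 0.17, adjusted p = 2.62e-06, edgeR).

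Ddit3 encodes CHOP, the bZIP factor of prolonged stress. Quiescent mutant lines had 92.4 and 129 CPM, against 32.1 and 26.6 CPM in proliferative mutant lines. Wildtype lines had 86.3 and 96.0 CPM at quiescence, against 30.7 and 26.3 CPM in proliferation. The states did not overlap in either genotype, and the fold change was 3.77 in mutant lines (log2 1.92, SE 0.17, adjusted p = 3.03e-05, edgeR) and 3.20 in wildtype lines (log2 1.68, SE 0.17, adjusted p = 4.83e-05, edgeR). Exons of Ddit3 overlap those of Mars, the methionyl-tRNA synthetase gene on the opposite strand, over 68 bases (7.64% of its exon bases). The sources used here do not say whether counting used strand. Mars fell with quiescence, by 0.53 on the log2 scale in mutant lines and by 0.56 in wildtype lines, opposite to Ddit3.

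Chac1, which degrades glutathione, had 20.3 and 24.5 CPM in quiescent mutant lines, against 7.06 and 8.30 CPM in proliferative ones. It had 16.4 and 17.3 CPM in quiescent wildtype lines, against 5.77 and 6.83 CPM in proliferative ones. No quiescent value reached down to a proliferative one, with a fold change of 2.91 in mutant lines (log2 1.54, SE 0.16, adjusted p = 6.67e-05, edgeR) and 2.67 in wildtype lines (log2 1.42, SE 0.16, adjusted p = 8.76e-05, edgeR).

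Sesn2, a sestrin that restrains mTORC1 when leucine is short, had 63.5 and 54.3 CPM in quiescent mutant lines, against 30.4 and 35.0 CPM in proliferative ones. Its wildtype values were 64.6 and 54.4 CPM at quiescence, against 26.7 and 31.7 CPM in proliferation. States were again apart in both genotypes, with a log2 fold change of 0.85 in mutant lines (SE 0.14, adjusted p = 0.00114, edgeR) and 1.02 in wildtype lines (SE 0.14, adjusted p = 0.000294, edgeR). The mutant call was lost when a change beyond 1.5-fold was required (adjusted p = 0.0711).

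Phgdh carries out the first step of serine synthesis from a glycolytic intermediate. It had 224 and 250 CPM in quiescent mutant lines, against 438 and 411 CPM in proliferative ones, and 216 and 198 CPM in quiescent wildtype lines, against 402 and 415 CPM in proliferative ones. Phgdh fell by 0.84 on the log2 scale in mutant lines (SE 0.11, adjusted p = 0.000206, edgeR) and by 0.98 in wildtype lines (SE 0.11, adjusted p = 6.27e-05, edgeR). The annotation names a pseudogene, Phgdh-ps1, and the sources used here do not say how reads shared with it were counted.

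Psat1, the aminotransferase of the next step, had 180 and 220 CPM in quiescent mutant lines, against 322 and 328 CPM in proliferative ones. It had 164 and 174 CPM in quiescent wildtype lines, against 334 and 336 CPM in proliferative ones. Quiescent lines were thus lower in all cases, by 0.70 on the log2 scale in mutant lines (SE 0.12, adjusted p = 0.000961, edgeR) and by 0.98 in wildtype lines (SE 0.12, adjusted p = 9.81e-05, edgeR). The mutant call did not hold beyond a fold of 1.5 (adjusted p = 0.217).

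Atf4, the central factor of the pathway, had 198 and 222 CPM in quiescent mutant lines, against 155 and 189 CPM in proliferative ones. In wildtype lines it had 184 and 182 CPM at quiescence, against 185 and 172 CPM in proliferation. The states did not overlap in mutant lines and overlapped in wildtype lines. The log2 fold change was 0.29 in mutant lines (SE 0.12, adjusted p = 0.082, edgeR) and 0.03 in wildtype lines (SE 0.12, adjusted p = 0.84, edgeR). With limma-voom and the line as a random block, and without day 8, the mutant value was called (adjusted p = 0.0248 and 0.0386).

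Asns, which makes asparagine, had 126 and 147 CPM in quiescent mutant lines, against 130 and 121 CPM in proliferative ones, and 116 and 115 CPM in quiescent wildtype lines, against 150 and 123 CPM in proliferative ones. Its log2 fold change was 0.12 in mutant lines (SE 0.12, adjusted p = 0.47, edgeR) and -0.24 in wildtype lines (SE 0.12, adjusted p = 0.143, edgeR). Atf3, a bZIP factor induced by many stresses, had 3.13 and 2.40 CPM in quiescent mutant lines, against 3.15 and 2.34 CPM in proliferative ones, and 2.92 and 2.39 CPM in quiescent wildtype lines, against 2.93 and 2.16 CPM in proliferative ones. Both states of Atf3 overlapped fully, and replicate 1 stood above replicate 2 in each of the 4 groups of genotype and state. Its interval was wide, from -0.64 to 0.68 log2 units in mutant lines and from -0.59 to 0.72 in wildtype lines (95% interval from edgeR's test).

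**Figure D2:**
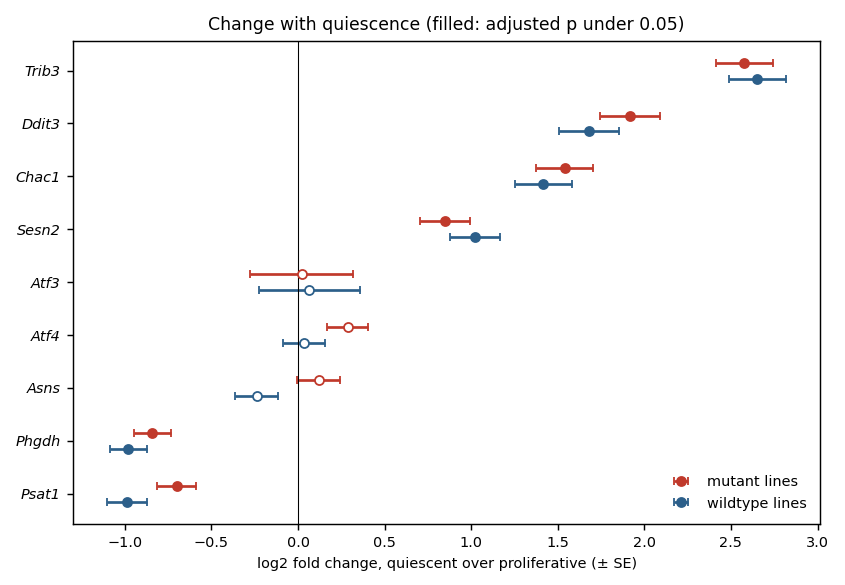
Log2 fold change of each member, quiescent over proliferative, with its SE as a bar, for mutant lines (red) above wildtype lines (blue); filled points had an adjusted p under 0.05 in edgeR's test. Trib3 stood farthest to the right at 2.58 and 2.65, Psat1 and Phgdh lay between -0.70 and -0.98, and Atf3, Atf4 and Asns were not called.

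The change with quiescence was then compared between genotypes, by the interaction of genotype and state. No member was called, and 0 of 15740 genes (0%) were called by edgeR, while 1.68% of genes and 0 of 9 members had an unadjusted p under 0.05. Asns had the smallest unadjusted p of the members, with a change 0.36 log2 units higher in mutant than in wildtype lines (SE 0.18, unadjusted p = 0.0709, adjusted p = 1.00, edgeR).

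The other genes of the pathway were counted in lists, beginning with its sensors, for mutant and then for wildtype lines. Of all 15740 genes, 21.1% were called higher and 21.0% lower in mutant lines, and 23.9% and 23.7% in wildtype lines. For every list below, a count near these shares says little about the list. Where a line of a genotype was left out, its group held only the other line, and fewer of all genes were called in that genotype. The counts without a line, given with the lists, thus say little about a list by itself. Of 4 eIF2alpha kinase genes 2 rose and 1 fell in both genotypes. Eif2ak3, the kinase PERK of the endoplasmic reticulum, had 48.3 and 52.7 CPM in quiescent mutant lines, against 24.4 and 28.7 CPM in proliferative ones (log2 0.92, wildtype 1.00), and Eif2ak2, the kinase PKR that binds double-stranded RNA, rose by 0.78 and 0.73 log2 units. Eif2ak4, the kinase GCN2 of amino acid shortage, fell by 0.65 and 0.51 log2 units, and Eif2ak1, the heme-regulated kinase, was not called (log2 -0.02 and -0.12). Of 8 genes for subunits of eIF2 and its exchange factor eIF2B, 6 fell in mutant and 7 in wildtype lines and none rose. Eif2s1, the subunit that the kinases phosphorylate, fell by 1.00 and 1.20 log2 units, Eif2b3 by 0.99 and 1.28, Eif2b1 by 0.76 and 0.91, and Eif2b5 by 0.54 and 0.58. Of the phosphatase regulators that reverse the pathway, Ppp1r15b fell by 0.38 and 0.36 log2 units, and Ppp1r15a (GADD34) was not called (log2 near 0 in mutant and -0.17 in wildtype lines). Without wildtype replicates 1 and 2 in turn, 3 and 4 eIF2 and eIF2B genes were called in wildtype lines, and without replicate 2 the kinases called were 1. Ppp1r15b was not called in mutant lines without mutant replicate 2, nor in wildtype lines without either wildtype line, leaving 0 of 2.

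Among 7 bZIP factors and partners of ATF4, 3 rose and 1 fell in both genotypes. Atf5, itself under control of eIF2 phosphorylation, rose by 1.58 log2 units in mutant and 1.51 in wildtype lines, Nupr1, a small stress-induced chromatin protein, by 1.53 and 1.04, and Cebpg, a dimer partner of ATF4, by 0.54 and 0.39. Jun fell by 0.81 and 0.85 log2 units. Of 15 other known targets of ATF4 and CHOP, 8 rose in each genotype and 2 in mutant and 3 in wildtype lines fell. Nupr1 and Cebpb are in this list and also among the 7 partners. Gadd45a, a growth arrest gene, had 39.6 and 45.2 CPM in quiescent mutant lines, against 6.52 and 6.96 CPM in proliferative ones (log2 2.65, wildtype 2.84), and Vldlr, a lipoprotein receptor, rose by 1.76 and 1.81 log2 units. Fgf21, a secreted hormone of starvation, had 37 to 121 counts in the 6 quiescent mutant libraries, against 0 in both proliferative ones. In wildtype it had 41 to 105 counts in 6 quiescent libraries, against 0 and 1 in the proliferative ones. Dusp1, a phosphatase of MAP kinases, fell by 0.98 and 1.05 log2 units. All 3 sestrins rose, Sesn3 by 2.33 and 2.59 and Sesn1 by 1.13 and 1.31 log2 units. Without wildtype replicate 2, 5 of the 15 targets and 1 of the 7 partners were called in wildtype lines, and without wildtype replicate 1 the targets called were 7.

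In metabolism, 2 of 8 further genes of serine, glycine and one-carbon synthesis rose in both genotypes, while 5 fell in mutant and 6 in wildtype lines. Mthfd1, the cytosolic folate enzyme, fell by 1.26 and 1.37 log2 units, Shmt1 by 1.15 and 1.31, and Mthfd1l by 0.93 and 1.19, on the side of Phgdh and Psat1. Aldh1l2, the mitochondrial formyl-folate dehydrogenase, rose by 1.32 and 1.21 log2 units. Other amino acid synthesis was mixed, with 3 genes up and 4 down of 10 in each genotype. Pycr1, the last enzyme of proline synthesis, had 27.8 and 31.6 CPM in quiescent mutant lines, against 8.11 and 10.1 CPM in proliferative ones (log2 1.70, wildtype 1.80), and Gpt2, an alanine aminotransferase, rose by 0.99 and 0.96 log2 units. The aspartate aminotransferases Got2 and Got1 fell, by 0.74 and 0.86 and by 0.48 and 0.67 log2 units. Leaving out mutant replicate 1 reduced the calls of this list in mutant lines to 3, and leaving out either wildtype line reduced those in wildtype lines to 4.

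Amino acid transporters gave 3 risen and 2 fallen of 10 in mutant lines and 2 and 2 in wildtype lines. Slc6a9, a glycine carrier, rose by 1.27 and 1.18 log2 units and Slc1a4, a carrier of alanine and serine, by 1.10 and 1.03. Slc38a1, a glutamine carrier, fell by 0.51 and 0.55, and Slc7a1, an arginine carrier, by 0.46 and 0.55 log2 units. Of 20 cytosolic aminoacyl-tRNA synthetases, which charge tRNAs, 10 fell and 3 rose in mutant lines, and 15 fell and 1 rose in wildtype lines. Rars fell by 0.87 and 1.12 log2 units, Kars by 0.85 and 1.04, Hars by 0.92 and 0.99, and Qars by 0.63 and 0.68. Aars rose by 0.46 and 0.42 log2 units. Eprs (0.52) and Sars (0.29) rose in mutant lines and were not called in wildtype lines (0.29 and 0.21), but no gene was called in the interaction. The synthetases called in wildtype lines were 8 without wildtype replicate 1 and 9 without replicate 2, and those in mutant lines 8 without mutant replicate 1. The transporters called were 3 in mutant lines without mutant replicate 2 and 2 in wildtype lines without wildtype replicate 2.

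The ATF6 and XBP1 branch of the unfolded protein response, whose targets mark stress in the endoplasmic reticulum, had 2 genes up in both genotypes and 4 down in mutant and 5 down in wildtype lines, of 13. Herpud1, which helps to degrade misfolded protein, rose by 0.95 and 0.85 log2 units and Dnajb9, a cochaperone, by 0.76 and 0.70. Manf fell by 0.51 and 0.66 and Creld2 by 0.50 and 0.46 log2 units, and the chaperone gene Hspa5 was not called (-0.06 and -0.18). Without mutant replicate 2 the branch had 3 calls in mutant lines, and without wildtype replicates 1 and 2 in turn it had 3 and 2 in wildtype lines. All 10 proliferation markers fell, their sum being 301 to 594 CPM in quiescent libraries and 1729 to 2018 CPM in proliferative ones. Their part in the changes of the members was not tested.

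**Figure D3:**
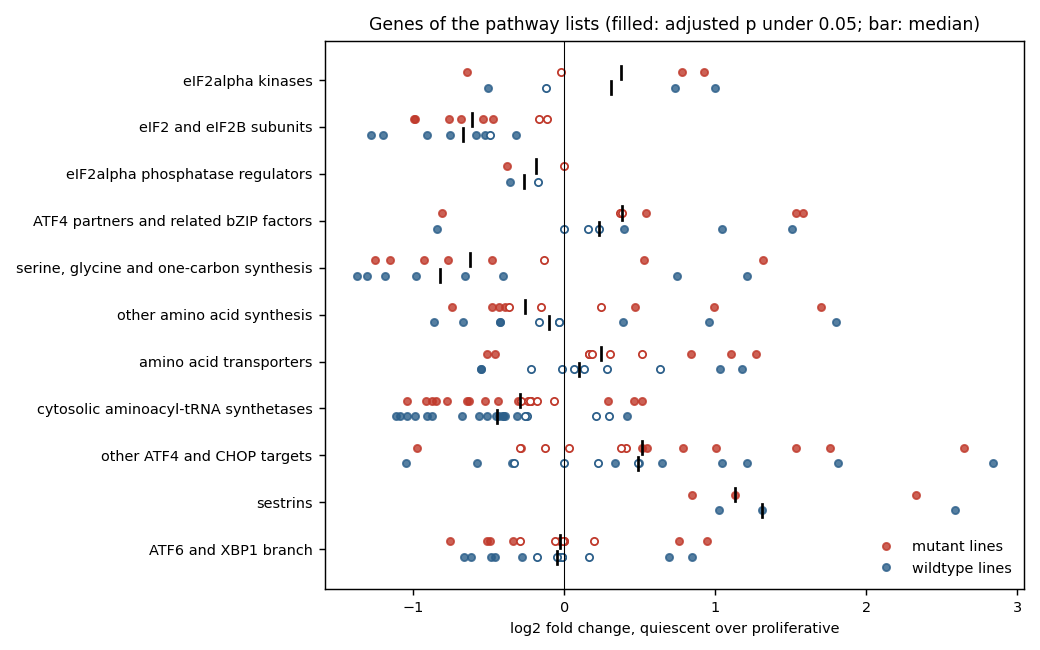
Log2 fold change, quiescent over proliferative, of every gene in 11 lists (Sesn2 is in the sestrin list), mutant lines in red above wildtype lines in blue, with filled points for an adjusted p under 0.05 in edgeR's test and a black bar at the median of the list. Fgf21, at 0 counts in the proliferative mutant libraries, is in the median but not drawn; eIF2 and eIF2B subunits and tRNA synthetases lay mostly below 0 (medians -0.61 and -0.30 in mutant, -0.67 and -0.44 in wildtype lines), and other targets had medians of 0.52 and 0.49.

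Mutant and wildtype lines were next compared within a state. At quiescence no member was called, and 0.00635% of the 15740 genes were, which is Plagl1 alone. Summed CPM was nevertheless higher in both mutant than in both wildtype lines for 6 of 9 members, Atf4, Trib3, Chac1, Asns, Psat1 and Phgdh, where 12.8% of all genes were higher without overlap. Chac1, at 20.3 and 24.5 CPM in mutant lines against 16.4 and 17.3 CPM in wildtype lines, had the largest difference (log2 0.41, SE 0.16, unadjusted p = 0.0256, adjusted p = 1.00, edgeR). It was the single member with an unadjusted p under 0.05, where 0.483% of all genes had one. The differences of the other 5 lay between 0.19 log2 units (Phgdh) and 0.28 (Trib3), and Sesn2 was at -0.01. The median of the members was 0.24, against 0.01 over all genes, and 8 of 9 were above 0, as were 54.8% of all genes. The number of members with an unadjusted p under 0.05 was 6 without day 8, where 250 of 15401 genes had one. It was 4 with limma-voom (411 of 15439 genes) and 0 without day 10 (80 of 15394 genes). Leaving out a line left only the other line in its group. The number then rose without mutant replicate 1 and fell without each other line. Without day 10 the difference of Atf4 was 0.04, and those of Chac1, Trib3, Phgdh and Asns were 0.16, 0.10, 0.09 and 0.14. Without mutant replicate 2 Atf4 stood at 0.12, Ddit3 at 0.03, Psat1 at 0.10, Trib3 at 0.13, Phgdh at 0.12 and Asns at 0.13. Without mutant replicate 1 Ddit3 and Psat1 stood at 0.49 and 0.37, and without day 8 Atf4 stood at 0.32. At day 2 no member was called either (0.00635% of genes), and the median of the members was 0.05. None of the 9 had an unadjusted p under 0.05, where 2.87% of genes had one. Trib3 had 6.52 and 7.78 CPM in proliferative mutant lines, against 6.24 and 5.05 CPM in wildtype lines, with an unadjusted p of 0.0578 (log2 0.36, SE 0.17, adjusted p = 1.00, edgeR).

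Taken by day, the genotypes differed most at day 10. Of the 9 members, 9 were above 0 at day 10, with a median log2 difference of 0.35, against 0.02 over all genes, of which 52.2% were above 0. At day 8 the median was 0.03 with 6 of 9 above 0 (48.6% of genes), and at day 12 it was 0.15 with 9 of 9 above 0 (49.9% of genes). No member was called on any of the 3 days, and 0.00648% of the 15439 genes were called on each. At an unadjusted p under 0.05 there were 5 members at day 10, all higher, where 5.29% of all genes were higher at that level. In either direction 1507 of the 15439 genes reached that level at day 10. At days 8 and 12 there were 0 members, where 276 (1.79%) and 227 (1.47%) of the genes reached it in either direction. Without mutant replicate 1 on both days, and without wildtype replicate 2 at day 12, at least 1 member had an unadjusted p under 0.05. The group then held only its other line, and more of all genes reached that level too. Without mutant replicate 2 the members above 0 were 2 of 9 at day 8 and 5 of 9 at day 12, and without wildtype replicate 2 there were 4 at day 8. These comparisons used the 16 single libraries and counted the harvests of a line as independent.

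Atf4 had 228 and 257 CPM in mutant lines at day 10, against 180 and 175 CPM in wildtype lines (log2 0.45, SE 0.12, unadjusted p = 0.0026, adjusted p = 0.475, edgeR). Trib3 had 46.8 and 58.1 CPM in mutant lines, against 38.9 and 34.9 CPM in wildtype lines (log2 0.51, SE 0.15, unadjusted p = 0.00553, adjusted p = 0.475, edgeR). Chac1 had 25.8 and 29.3 CPM in mutant lines, against 17.3 and 15.4 CPM in wildtype lines (log2 0.76, SE 0.24, unadjusted p = 0.00686, adjusted p = 0.475, edgeR). For each of these 3 genes the 2 mutant libraries of day 10 were the highest of all 16. They were the members with the smallest unadjusted p at day 10, and the share of all genes with this order was not counted.

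Phgdh had 249 and 272 CPM in mutant lines at day 10, against 219 and 188 CPM in wildtype lines (log2 0.35, SE 0.12, unadjusted p = 0.0128, adjusted p = 0.475, edgeR). Asns had 143 and 157 CPM in mutant lines, against 124 and 107 CPM in wildtype lines (log2 0.38, SE 0.15, unadjusted p = 0.0255, adjusted p = 0.481, edgeR). Ddit3 had 97.6 and 128 CPM against 85.7 and 91.6 CPM, and Psat1 199 and 212 CPM against 178 and 146 CPM, in mutant and wildtype lines, with log2 differences of 0.35 and 0.34. Sesn2 (0.11) had 69.1 and 63.2 CPM in mutant lines, against 62.9 and 59.4 CPM in wildtype lines, and Atf3 (0.16) 3.46 and 2.30 CPM, against 3.26 and 1.93 CPM. Thus 8 of 9 members, all but Atf3, were higher in both mutant lines than in both wildtype lines at day 10, where 22.7% of all genes were. The number with an unadjusted p under 0.05 was lower without mutant replicate 2 or wildtype replicate 2, and higher without mutant replicate 1. Each of these fits left only the other line in a group. Members above 0 at day 10 were 7 of 9 without mutant replicate 1 and 8 of 9 without wildtype replicate 2. None of the 9 had an unadjusted p under 0.05 when a change beyond 1.5-fold was required. Summed fibroblast markers at day 10 were 37765 and 38685 CPM in mutant lines, against 31238 and 31479 CPM in wildtype lines, also without overlap. At day 8 they were 30411 and 32298 CPM in mutant lines, against 29638 and 29596 CPM in wildtype lines. Chondrocyte markers at day 10 summed to 95.5 and 499.5 CPM in mutant lines, against 120 and 156 CPM in wildtype lines, mutant replicate 2 standing alone. The part of these cell type markers in the day 10 differences was not tested.

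**Figure D4:**
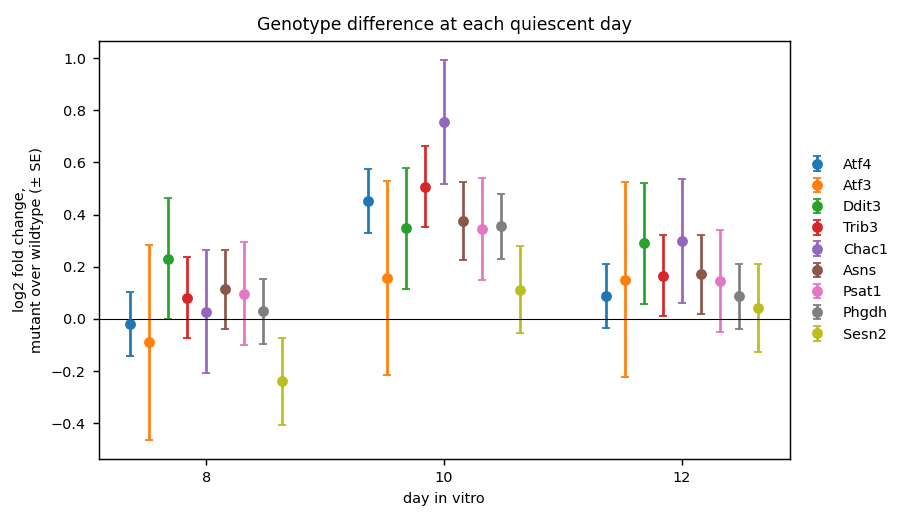
Log2 fold change of each member, mutant over wildtype, at days 8, 10 and 12 in vitro (edgeR's fit to 16 libraries), with its SE as a bar; the members stand side by side within a day. All 9 points lie above 0 at day 10, the highest being Chac1 at 0.76 and Trib3 at 0.51, and none of the points had an adjusted p under 0.05.

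Other lists were compared between genotypes at day 10, with no gene called in any. Of 8 further genes of serine and one-carbon synthesis 8 were above 0 (median log2 0.32), of 20 tRNA synthetases 19 (0.16), of 15 other targets 13 (0.22) and of 13 genes of the ATF6 and XBP1 branch 10 (0.13). Partners of ATF4 were above 0 in 6 of 7 (median 0.33), other amino acid synthesis in 9 of 10 (0.17), transporters in 7 of 10 (0.20) and phosphatase regulators in 2 of 2 (0.22). The eIF2 and eIF2B subunits were above 0 in 5 of 8 (0.10), eIF2alpha kinases in 2 of 4 (-0.09) and sestrins in 1 of 3 (-0.17). Immediate early genes, which respond to serum and handling, were above 0 in 8 of 8 (median 0.30), and proliferation markers in 9 of 10 (0.13). Of the immediate early genes, Jun is also among the partners of ATF4 and Dusp1 among the other targets. Summed immediate early genes had 402 and 335 CPM in mutant lines at day 10, against 335 and 247 CPM in wildtype lines. The part of these genes in the day 10 differences of the members was not tested.

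Within each line the step from day 8 to day 10 was then followed. Atf4 changed by 0.34 and 0.33 log2 units in the mutant lines, against changes of -0.19 and -0.08 in the wildtype lines. Chac1 changed by 0.58 and 0.53 log2 units in the mutant lines, against -0.25 and -0.08 in the wildtype lines, and Phgdh by 0.15 and 0.14, against -0.16 and -0.21. These 3 of 9 members went up in both mutant and down in both wildtype lines, as did 10.3% of all 15439 genes. The difference itself was tested by an interaction of genotype and day, a comparison added after the data were seen. No member was called, nor was any of 15439 genes by edgeR (0%), and 8.72% of genes had an unadjusted p under 0.05. Atf4 had a difference of 0.47 log2 units (SE 0.17, unadjusted p = 0.0169, adjusted p = 0.536) and Chac1 of 0.73 (SE 0.33, unadjusted p = 0.0479, adjusted p = 0.572), both by edgeR. All 9 members were above 0 (51.8% of genes), with a median of 0.33 against 0.02 over all genes. DESeq2 gave an adjusted p to 4065 of the 15439 genes in this interaction, and called 34 of them and 0 of the members. A member outside those 4065 genes could not be called. The 2 members with an unadjusted p under 0.05 were 0 without wildtype replicate 1 and 1 without each of the other lines. From day 10 to day 12 the differences were above 0 for 0 of 9 (48.9% of genes), with a median of -0.21 against -0.01, and 0 members were called (0% of genes) or reached an unadjusted p under 0.05 (5.37% of genes). In this second step 4 members were above 0 without wildtype replicate 2, and 2 without each mutant line; 1 reached an unadjusted p under 0.05 without mutant replicate 2, and 1 without wildtype replicate 1. Both steps share the day 10 libraries. Immediate early genes moved likewise, with 8 of 8 above 0 in the first step (median 0.47) and 0 of 8 in the second (median -0.45), and their part in it was not tested.

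Over both genotypes together, the quiescent days differed little for the members. Day 10 against day 8 gave 0 of 9 called (0.0648% of 15439 genes), day 12 against day 10 gave 0 (0.415%), and day 12 against day 8 gave 0 (3.12%). At an unadjusted p under 0.05 there were 1, 0 and 2 members in these comparisons, where 10.4%, 12.3% and 14.2% of genes reached it. Trib3 was 0.35 log2 units higher at day 10 than at day 8 (SE 0.11, unadjusted p = 0.00687, adjusted p = 0.286, edgeR), and 4 of 4 lines were higher at day 10. At day 8 it had 31.2 and 39.9 CPM in mutant lines, against 34.0 and 33.2 CPM in wildtype lines. Psat1 was lower at day 12 than at day 8 (log2 -0.37, SE 0.14, adjusted p = 0.222, edgeR), and so was Phgdh (log2 -0.21, SE 0.09, adjusted p = 0.289, edgeR). Without mutant replicate 2, which left only the other mutant line in its group, the Psat1 change was larger (log2 -0.49). In mutant replicate 2 Psat1 had 238 CPM at day 8 and 214 CPM at day 12. Over the same interval all 10 proliferation markers were lower, and 9 of them were called lower, where 309 of 15439 genes were.

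The profiles of the members over the 16 libraries were compared with one another and with 9923 other genes of at least 5 CPM on average, by the root mean square difference of centred log2(CPM + 0.5) values, as a description. Psat1 and Phgdh were the most alike of the members (0.15 log2 units), next to Atf4 and Asns (0.15), and Trib3 was least like Phgdh, followed by Psat1 (1.49 from Psat1). Nearest to Trib3 were Gadd45a (0.17) and Acot2 (0.18), nearest to Ddit3 were Vldlr (0.15) and Sdc2 (0.18), and nearest to Chac1 were Lrig3 (0.24) and Slc6a9 (0.24). Psat1 lay closest to Sc4mol (0.08) and Fdps (0.09), 2 genes of sterol and isoprenoid synthesis, and Phgdh to Eef1g and Tpm4 (both 0.10). Atf4 had Arpc5l and Rraga as its nearest genes (both 0.09), Asns Arpc3 (0.08) and Nfu1 (0.09), Sesn2 Stoml1 (0.10) and Nfatc4 (0.11), and Atf3 Map3k1 and Prkcd (both 0.19).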

How the data were processed

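Per the labels' protocols, stranded libraries were made from DNase-treated total RNA. The deposited values are raw gene counts in whole numbers. The submitters' processing notes name HTSeq 0.6.1p1, Bowtie2 2.2.9, TopHat2 2.1.1, bcl2fastq 2.18 and the mouse build mm9. The sources used here do not give the annotation or strand setting. Groups, days and replicate numbers came from the labels. CPM (TMM scaling) and edgeR 4.0.16 quasi-likelihood tests (R 4.3.3, filterByExpr, robust) were computed from the counts. States were compared over 8 summed libraries (15740 genes, 4 residual degrees of freedom), days over 16 libraries (15439 genes, 8 residual degrees of freedom). SE was the size of the log2 fold change divided by the root of its F statistic. An exact permutation test of 2 lines against 2 gives no two-sided p under 0.333. No library was a copy of another. Exon lengths came from GENCODE on GRCm38. Scripts were tested on simulated data. The members and lists were chosen with earlier results of these data known. Named were all members, the 4 genes of each list with the smallest p in wildtype quiescence, and the 2 nearest profiles. Mars, Aars, Eprs, Sars and Hspa5 were chosen after their values were seen. A result for 1 list gene is not reported here. States and days of a line are paired by design, since the same line was harvested each time (correlation of deviations 0.248 in mutant and 0.196 in wildtype lines). Alternatives used DESeq2 1.42.0 and limma 3.58.1 among others.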

Additional observations from a re-analysis of the deposited data

Results flagged for a closer look

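A total of 3 genes moved in opposite directions in the mutant and wildtype lines between day 8 and day 10, up in both mutant and down in both wildtype lines, as did 10.3% of all 15439 genes. The mutant minus wildtype difference of the log2 change was 0.473 for Atf4, 0.728 for Chac1 and 0.327 for Phgdh. Atf4 changed by 0.338 and 0.332 log2 units in the mutant lines, against -0.19 and -0.0824 in the wildtype lines. Chac1 changed by 0.581 and 0.528, against -0.254 and -0.0808, and Phgdh by 0.148 and 0.138, against -0.16 and -0.21. The interaction of genotype and day, fitted with edgeR to all genes, gave unadjusted p values of 0.0169 for Atf4, 0.0479 for Chac1 and 0.084 for Phgdh. The adjusted p values were 0.536, 0.572 and 0.6, so none of the 3 passed.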

How the results depend on the processing

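Between states, the 6 members called in each genotype stayed at 6 or 7 in several other settings. These were RLE scaling, DESeq2, no filter on low counts, the line as a block, limma-voom and leaving out days. A test against a fold of 1.5 left 4 in mutant lines. Same-numbered mutant and wildtype lines share a title letter that the labels do not explain, and were not taken as pairs. Their deviations correlated at 0.0112 at quiescence (days summed) and -0.0285 in proliferation, and single quiescent days were not checked. Summed immediate early genes moved with the letter on such days. At day 8 they had 419 and 314 CPM in mutant lines and 466 and 307 CPM in wildtype lines (replicates 1 and 2). At day 12 they had 245 and 456 CPM in mutant lines and 220 and 548 CPM in wildtype lines. Most members moved likewise at day 12, as Atf4, Ddit3, Trib3, Chac1, Asns, Psat1 and Phgdh were higher in replicate 2 in both genotypes. Chac1 had 17.0 and 24.3 CPM in mutant lines and 12.4 and 21.3 CPM in wildtype lines, while Trib3 differed little in wildtype lines (36.7 and 37.0 CPM). Sesn2 was lower in replicate 2 in both genotypes, and Atf3 went opposite ways in mutant and wildtype lines. A block term was the replicate number for mutant against wildtype, and the line for states, days and interactions. States were thus not refitted with the letter as a block. With these blocks 6 members were called between states in each genotype and 0 in the other comparisons, as without them. DESeq2 too called 0 members between genotypes, between quiescent days and in the interactions. In the interaction from day 8 to day 10 it gave an adjusted p to 4065 genes only, and members outside them could not be called. Leaving out 1 line each time gave 0 to 1 members called for day 12 against day 8, the 1 being Psat1 without mutant replicate 2. Values that changed sign were all uncalled. On the log2 scale, leaving out 1 line gave -0.035 to 0.251 for Asns with quiescence in mutant lines, -0.217 to 0.58 for Atf3 between genotypes at day 10 and -0.151 to 0.243 at quiescence, and -0.0299 to 0.132 for Atf3 and -0.0393 to 0.0724 for Atf4 with quiescence in wildtype lines. For Sesn2 it gave -0.00297 to 0.163 between genotypes at day 10 and -0.139 to 0.109 at quiescence. Leaving out a day turned Atf3 to -0.0115 between genotypes (without day 10) and to -0.0022 and -0.0593 with quiescence in mutant lines (without days 10 and 12). Without day 8, Atf4 in wildtype lines was -0.00767 and Sesn2 between genotypes 0.109. The cause was not tested. Of the other single-member values, 492 kept direction and call, 3 gained a call and 2 lost it. Calls in the pathway lists moved by over 1.5 times in 40 of 260 cases, and the test against a fold of 1.5 lowered them by that much in all 10 lists recomputed, in both genotypes. Atf3, at 1.93 to 4.07 CPM, was the member least deeply counted.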
